A study of Mus musculus with 6 samples.

Results

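The genes of the actin cytoskeleton described here were the 6 actins, the Arp2/3 complex, the myosins and the proteins that bind, cap, cut or crosslink actin filaments. They were chosen by gene name, as every non-control probe whose name on the array began as an actin, actinin, actin-related protein, Arp2/3 subunit, myosin, tropomyosin, cofilin, profilin, capping protein, diaphanous formin or filamin gene, or was Ezr, Msn, Rdx, Gsn, Vil1, Coro1a, Cttn, Vasp or Enah. The rule uses no measured value. It took in 108 of the 31791 gene names on the arrays, carried by 153 of 39429 probes.

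RNA was measured in LSK-SLAM cells, a sorted fraction of mouse bone marrow without lineage markers or CD48 that carries c-Kit, Sca-1 and CD150 and in which hematopoietic stem cells are found. Both groups came from bone marrow of secondary transplant recipients and differed in the genotype of the first donor, which was wild type (2T-WT, n = 3 arrays) or lacked p190-B (2T-p190-B-/-, n = 3 arrays), a GTPase-activating protein encoded by Arhgap5. The first donors were littermate fetuses of a C57BL/6J backcross, whose liver cells were given with congenic competitor marrow to lethally irradiated mice. Marrow of those mice then went into a second set of irradiated recipients. Whether the sort for the arrays used a donor marker is not stated. Host and competitor cells may therefore be present in either group. The donors were mid-gestation fetuses and the second transfer came months after the first, while the ages of the recipients are not given in the sources used here. Cells came from 3 independent secondary recipients per group on 3 independent occasions, which does not settle whether an array holds 1 mouse or several, and p-values measure only the spread between these arrays. In such bulk RNA, fewer cells of a type and less RNA per cell cannot be told apart.

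Actin monomers join into filaments that give a blood cell its shape and polarity. The Arp2/3 complex starts a new filament as a branch on the side of an old one, formins extend straight filaments, cofilin cuts them, and class II myosins pull on them under the control of their light chains. The small GTPases that p190-B turns off act on nearly all of these steps through kinases and nucleation-promoting factors, and the study examined cell shape and filamentous actin in these cells. The comparison of the arrays asks whether transcripts of the machinery itself differed with donor genotype.

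Values are log2 of an array's processed signal relative to that array's 75th percentile, so that 0 is the level of a fairly bright probe. Differences are 2T-p190-B-/- minus 2T-WT on that scale, and each gene stands by its brightest tested probe unless another is named. The 25127 probes that 3 or more arrays detected well above background were tested together in limma, with p-values adjusted over all of them by the Benjamini-Hochberg method. Between 48.4% and 73.1% of all probes, and between 56.9% and 80.4% of the members' probes, were well above background on an array. One 2T-WT array stood on a slide alone, the other two shared a slide with 2T-p190-B-/- replicates 1 and 2, and 2T-p190-B-/- replicate 3 stood on another. Replicate 3 of 2T-WT was the dimmest array, with a 75th percentile of 53.9 signal units against 125 to 385 on the others, and it held the highest of the 6 values for 33.6% of all genes tested. The probe for Arhgap5 itself was above background on a single array, of 2T-p190-B-/- at log2 −2.71, so it gives no check of the genotype. Of the markers of the sort, Ly6a was above background on all 6 arrays and Kit on 5, while Slamf1, which encodes CD150, and Procr were above background on none. Cd48, whose protein the sort excluded, was above background on all 6.

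Sequence set some of these probes apart, and the letters are shown first for the probes on which results turn. Actg1, the cytoplasmic gamma-actin gene, had 3 probes laid over 1 stretch of chromosome 11 (mm9 as given in the files, minus strand), whose letters each leave 1 reading frame without a stop. Actin coding sequences are nearly alike between genes, and which actin transcripts each probe binds was not tested. They are given 5′ to 3′, with capitals at positions where overlapping probes carry different bases.
Actg1, upstream probe, chr11:120208409-120208468: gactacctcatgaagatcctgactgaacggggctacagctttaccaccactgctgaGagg
Actg1, middle probe, chr11:120208371-120208430: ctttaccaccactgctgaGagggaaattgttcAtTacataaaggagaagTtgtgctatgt
Actg1, downstream probe, chr11:120208361-120208420: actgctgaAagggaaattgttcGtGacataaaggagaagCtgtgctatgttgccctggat
The middle and downstream probes share 50 positions and differ at 4 of them.

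Simple repeats marked another set. Of the 112 tested member probes, 3 held a perfect tandem repeat of 2- to 4-base units over 12 or more bases, a limit chosen after the values were seen, among them the only tested probe of Myo5c and the brightest of Capza1. For both, the 30 bases of the probe that hold the most of its repeat are shown, with the repeat in capitals.
Capza1, probe at chr3:104626205-104626264: GTGTGTGTGTGTGTGTGTGatctcagaaca
Myo5c, probe at chr9:75152487-75152546: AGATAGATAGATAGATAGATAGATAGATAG
Among the other tested member probes the longest such repeat was 11 bases.

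By each rule in this paragraph, the share of members called was no higher than that of all genes. Of the 108 member genes, 98 were above background on at least 1 array, 50 on all 6 with some probe, and 87 had a tested probe. No member had an adjusted limma p under 0.05, and none of the 15627 named genes did (0%). Without adjustment, 3 of the 87 tested members (3.45%) had a limma p under 0.05, against 6.12% of all genes tested. By the rule behind the study's gene lists, a 2-fold difference with an unadjusted p of at most 0.05 in their test of the groups, 1 member was lower, against 4.45% of all genes, and 0 were higher, against 1.98%. The smallest adjusted p of any member was 0.638.

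In 53 of the 87 tested members the mean was lower in 2T-p190-B-/- and in 34 it was higher. The median difference was −0.32, beside −0.36 over all genes tested, and 42 members lay below that median and 45 above it. Their within-group SD had a median of 0.92 log2 units, beside 1.04 for all genes tested. For 12 members (13.8%) every 2T-p190-B-/- array lay below every 2T-WT array, against 12.3% of all genes, and for 3 (3.45%) every one lay above, against 4.13%. Both shares were near those of the whole array. With 3 arrays against 3, the smallest two-sided p that an exact permutation test can give a single gene is 0.1. Groups that do not overlap have that p by construction, so it adds nothing for these 15. Without 2T-WT replicate 3 the counts were 19 and 7, and fewer arrays overlap less often by construction. The shares of all genes also rise with an array left out and are given as ranges in the last section.

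**Figure D1:**
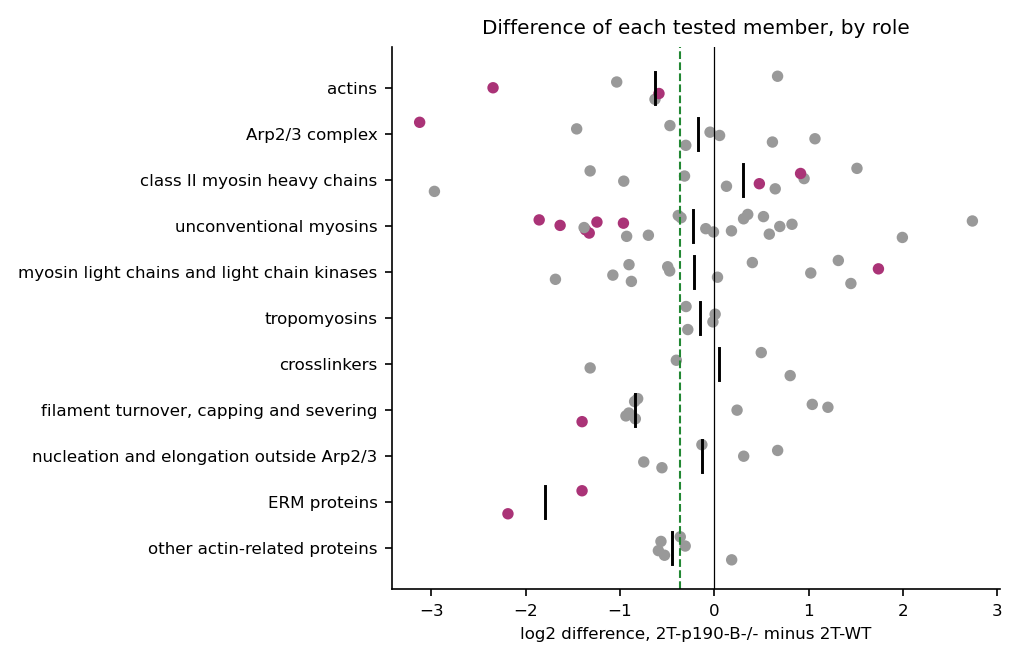
Log2 difference (2T-p190-B-/- minus 2T-WT, horizontal axis) of each of the 87 tested members, 1 point a gene, in rows by role. Magenta points are the 15 genes whose groups did not overlap, black bars are row medians, and the dashed line is the median of all genes at −0.36, on both sides of which most rows have points.

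Actins. Of the 6 actin genes, 5 were tested, 4 had a lower mean in 2T-p190-B-/- and none passed the adjusted test. Actb, the beta-actin of all nucleated cells, was the furthest apart. Its probe (chr5:143665422-143665481) read −1.01, −1.37 and 1.47 in 2T-WT against −2.51, −1.61 and −3.82 in 2T-p190-B-/-. The groups did not overlap, but the gap between them was 0.24, and 2T-WT replicate 3 lay far above the other two. The means were −0.30 ± 1.55 (SD, n = 3) and −2.65 ± 1.11, a difference of −2.35 ± 1.00 (SE), or 5.08-fold, with an adjusted limma p of 0.638. Without 2T-WT replicate 3 the difference was −1.46. That array also carried Cd79a, a B cell gene, at 9.47 against −4.89 to −1.65 on the others. The 5 B cell markers summed to 719 in scaled signal there and to between 3.82 and 5.77 elsewhere. The part of such cells in the Actb value and in the other values that 2T-WT replicate 3 raised was not tested.

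Acta2, the smooth muscle alpha-actin, was measured by 10 spots, 9 or 10 of them kept on each array, and so is among the most precise of the members. It read 0.47, 0.27 and 0.81 in 2T-WT and −0.19, −0.22 and 0.19 in 2T-p190-B-/-. All 2T-WT arrays were higher, by at least 0.08. The SD between spots of 1 array was 0.05 to 0.10, against an SD between arrays of 0.27 in 2T-WT and 0.23 in 2T-p190-B-/-. The difference of −0.59 ± 0.64 (SE) had an adjusted limma p of 0.768.

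Acta1, of skeletal muscle, read −1.19, −2.06 and −0.72 against −2.12, −2.31 and −1.42, and the groups overlapped. Actg2, of visceral smooth muscle, read 1.28, −0.39 and −0.84 in 2T-WT and 0.62, 0.96 and 0.48 in 2T-p190-B-/-, a difference of 0.67 ± 0.78 (SE). It was the only actin with a higher mean in 2T-p190-B-/-, and 1 array of 2T-WT exceeded all of the others. Actc1, of heart muscle, was above background on no array.

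Of 5 Actg1 probes 4 were tested, and they differed in direction. The brightest, the downstream probe shown above, read 5.56, 3.09 and 0.76 in 2T-WT and 2.62, 1.35 and 2.33 in 2T-p190-B-/-, for a difference of −1.04 ± 1.19 (SE). From the middle probe the difference was −1.18 ± 1.29, nearly all of it from 2T-WT replicate 1 at 3.74. The upstream probe, which shares 22 positions with the middle one without a different base, was level at 0.14, 0.27 and 0.08 in 2T-WT, read 2.28, −0.92 and 0.24 in 2T-p190-B-/-, and gave 0.37 ± 0.91. The remaining tested probe, placed elsewhere in the gene, gave −0.32 ± 1.06. No direction can be given for Actg1, and with the slide as a block the brightest probe itself gave 0.065.

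**Figure D2:**
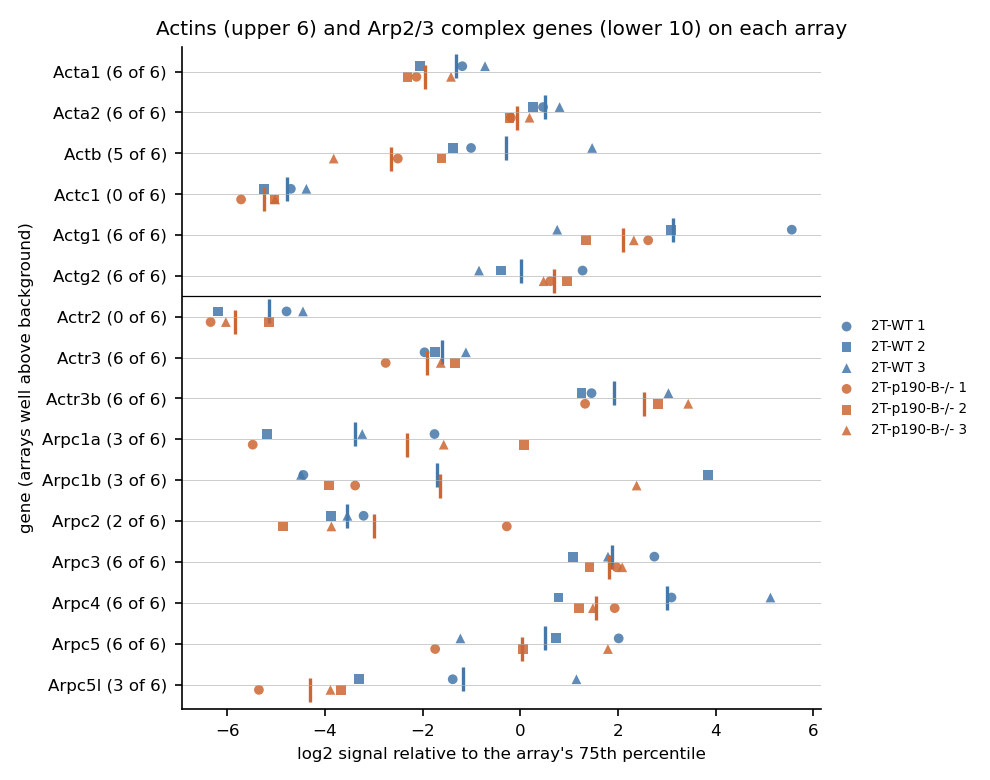
Log2 signal relative to the array's 75th percentile (horizontal axis) of the 6 actins and 10 Arp2/3 complex genes, with 1 symbol per array, a bar at each group mean and, beside each name, the number of arrays above background. Levels of different genes come from different probes and are not comparable. Actb, Acta2 and Arpc5l are the genes whose groups are separate.

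Arp2/3 complex. Of its 10 genes, 8 were tested, 5 lower and 3 higher, with a median difference of −0.17, and none passed the adjusted test. Arpc5l, an isoform of the smallest subunit, was above background on all 3 arrays of 2T-WT, at −1.38, −3.31 and 1.15, and on none of 2T-p190-B-/-, at −5.35, −3.67 and −3.89. As the 2T-p190-B-/- values are only bounds, the mean of Arpc5l on these arrays was at least 6.28-fold lower there. In that bound the detection limit of each array replaces a lower reading. The limit was −2.86 on 2T-p190-B-/- replicate 2, above the −3.31 of 2T-WT replicate 2. The separation of the groups therefore rests on readings under the limit. Without 2T-WT replicate 3 the bound was 2.80-fold and the fitted difference −1.96. With all arrays the fitted difference was −3.12 ± 1.16 (SE, limma adjusted p = 0.638) and the gap between the nearest arrays was 0.36. Arpc5l was the only member that passed the filter on 1 group alone, and a gene so chosen had to differ.

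Arpc4, a core subunit, read 3.10, 0.78 and 5.12 in 2T-WT and a narrow 1.94, 1.20 and 1.49 in 2T-p190-B-/-, a difference of −1.46 ± 1.09 (SE). The spread of 2T-WT alone, with an SD of 2.17, exceeded that difference. Actr3, the Arp3 subunit, read −1.96, −1.74 and −1.11 against −2.75, −1.34 and −1.63, a difference of −0.30 ± 0.72. Its paralog Actr3b differed by 0.62 ± 0.86 and Arpc5 by −0.47 ± 1.16. The directions of Actr3, Actr3b and Arpc5 each turned when an array was left out or the slide was a block. Actr2, the Arp2 subunit, was above background on no array and Arpc2 on 2.

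Arpc1a and Arpc1b, the alternative forms of the subunit that contacts nucleation-promoting factors, varied widely within each group. Arpc1b read −4.44, 3.85 and −4.49 in 2T-WT and −3.38, −3.92 and 2.38 in 2T-p190-B-/-, with SDs of 4.80 and 3.49 and a difference of 0.06 ± 2.49 (SE). One array of each group lay far above the other two. Arpc1a read −1.75, −5.18 and −3.23 against −5.48, 0.07 and −1.57, a difference of 1.07 ± 1.49.

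The 3 probes of Arpc3 disagreed in size. Its brightest read 2.75, 1.08 and 1.80 against 1.98, 1.42 and 2.09, a difference of −0.05 ± 0.73 (SE) that turned under quantile normalization. A second probe swung from 4.55 to −3.87 within 2T-WT and gave −1.37 ± 2.41. For the remaining probe, 2T-WT replicate 2 was left out as an outlier spot and the fit on 5 arrays gave −2.27 ± 0.86, with an adjusted limma p of 0.638. 

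**Figure D3:**
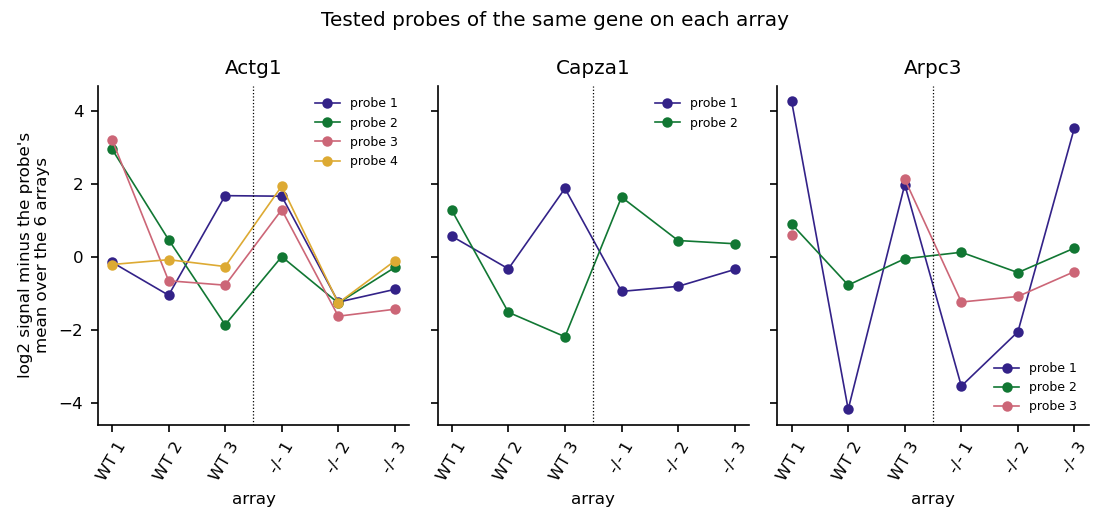
Tested probes of Actg1, Capza1 and Arpc3 on each array, as log2 signal minus that probe's mean over the arrays (vertical axis), with probes numbered along the chromosome in ascending position and a dotted line between 2T-WT and 2T-p190-B-/-. Probes 4, 3 and 2 of Actg1 are the upstream, middle and downstream probes whose sequences are shown above, and probe 1 of Capza1 holds the repeat. The group means of the Capza1 probes lie in opposite directions.

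Myosins. Class II heavy chains form the bipolar motors of muscle and of the cell cortex. Of 14 genes, 10 were tested, 4 lower and 6 higher, with a median of 0.30, and none passed the adjusted test. Of the non-muscle chains, Myh9 was above background on 1 array only. Myh10 read 4.12, −2.48 and −0.30 in 2T-WT and −2.31, −3.06 and −2.19 in 2T-p190-B-/-. Its difference of −2.97 ± 1.52 (SE) came largely from 1 array of 2T-WT, and the groups overlapped. Myh14, the remaining non-muscle chain, had the smallest spread within groups of the tested members. Its brightest probe read 4.13, 4.18 and 3.91 against 4.73, 4.37 and 4.54, all 3 arrays of 2T-p190-B-/- higher. The difference was 0.48 ± 0.64 (SE, limma adjusted p = 0.813), or 1.39-fold. A second Myh14 probe also did not overlap, at 0.65, 0.88 and 0.52 against 0.98, 1.17 and 3.15. Since limma draws the variance of each gene towards that of all genes, the SE of Myh14 was larger than the spread of its own arrays, whose SDs were 0.14 and 0.18.

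Myh7, the slow muscle chain, read −2.06, −1.45 and −2.02 in 2T-WT and −1.20, −0.83 and −0.76 in 2T-p190-B-/-, without overlap. It was 1.88-fold higher in mean there (difference 0.91 ± 0.65, SE, limma adjusted p = 0.656). Other muscle chains overlapped. Myh4 differed by 0.95 ± 0.99 and Myh6 by −0.32 ± 0.85, and the 2 tested probes of Myh8, the perinatal chain, by 1.51 ± 1.23 and 1.41 ± 0.83. Myh1 and Myh2 were above background on no array. Muscle markers that are not members, a list of 11 skeletal muscle genes such as Ckm and Ttn, were all tested, 8 lower and 3 higher, with a summed scaled signal of 12.5 to 163 in 2T-WT and 13.9 to 21.2 in 2T-p190-B-/-. All 11 were above background on some array. Of 5 heart muscle markers all were tested, 2 lower and 3 higher, with sums of 4.69 to 12.6 and 1.75 to 7.35. Their part in the muscle actin and myosin values was not tested.

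Unconventional myosins carry membrane and cargo along filaments. Of 25 genes, 22 were tested, 13 lower and 9 higher, with a median of −0.22, and 6 of the 22 were lower without overlap and none higher, beside 12.3% and 4.13% of all genes. None passed the adjusted test. Myo5c, Myo18b, Myo5a, Myo1h and Myo3b were among those lower without overlap. Myo18b, a divergent myosin known from striated muscle, was the only member past both parts of the 2-fold rule. Its brightest probe (chr5:113303894-113303953) read 5.21, 4.98 and 5.67 in 2T-WT and 3.76, 3.38 and 4.73 in 2T-p190-B-/-, with no overlap. The means were 5.28 ± 0.35 (SD, n = 3) and 3.96 ± 0.70, 2.51-fold apart (difference −1.33 ± 0.70, SE, limma adjusted p = 0.638). That result was lost under other scalings, as the difference was −0.55 with quantile normalization and −0.30 with normexp background correction, and also with 2T-p190-B-/- replicate 1 or 2 left out. Its other tested probes gave −0.34 ± 0.75 and −0.58 ± 1.03, and both overlapped.

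Myo5a, a transporter of vesicles and granules, read −0.45, −0.93 and 0.93 in 2T-WT and −1.51, −1.68 and −1.0 in 2T-p190-B-/-. The nearest arrays were 0.07 apart, and the difference was −1.24 ± 0.75 (SE, limma adjusted p = 0.638), or −0.70 without 2T-WT replicate 3. Myo1h, a class I membrane motor, read −3.01, −0.82 and −2.70 against −4.04, −3.97 and −3.42, a difference of −1.64 ± 0.80. It was above background on 1 array of 2T-WT and 2 of 2T-p190-B-/-, although the readings of the latter were lower. Myo3b differed by −0.96 ± 0.70.

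Myo5c, which moves secretory granules in epithelia and was measured by a repeat-bearing probe, read 4.33, 3.24 and 5.49 in 2T-WT and 2.28, 2.03 and 3.17 in 2T-p190-B-/-. The groups were 0.07 apart at their nearest, and the difference was −1.86 ± 0.81 (SE, limma adjusted p = 0.638). Capza1, the alpha subunit of the protein that caps growing filament ends, shared this pattern. Its repeat-bearing probe read 10.88, 9.99 and 12.19 in 2T-WT and 9.37, 9.51 and 9.97 in 2T-p190-B-/-, with 0.02 between the nearest arrays and a difference of −1.40 ± 0.78. A Capza1 probe without a repeat went the other way, at −0.76, −3.55 and −4.22 against −0.40, −1.58 and −1.67, a difference of 1.62 ± 1.02 with overlap, so that no direction can be given for Capza1.

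Repeat-bearing probes had lower values in 2T-p190-B-/- across the whole array. Of all tested probes, 602 held such a repeat, with a median difference of −1.25, and 92.0% of them had a lower mean in 2T-p190-B-/-. The other 24525 had a median of −0.30, and 59.98% of them were lower. Without overlap, 29.0% of the repeat-bearing probes were lower, against 11.2% of the others. Their median level was 7.50 on 2T-WT replicate 3 and 5.32 to 6.62 on the other arrays. Repeat-bearing probes were bright, and among the probes with a mean log2 level over 3 the medians were −1.31 with and −0.78 without a repeat. Under quantile normalization the medians were −0.09 for the 602 and −0.11 for the rest, and there Capza1 differed by −0.013 and Myo5c by −1.36. What the repeat-bearing probes bound was not tested.

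**Figure D4:**
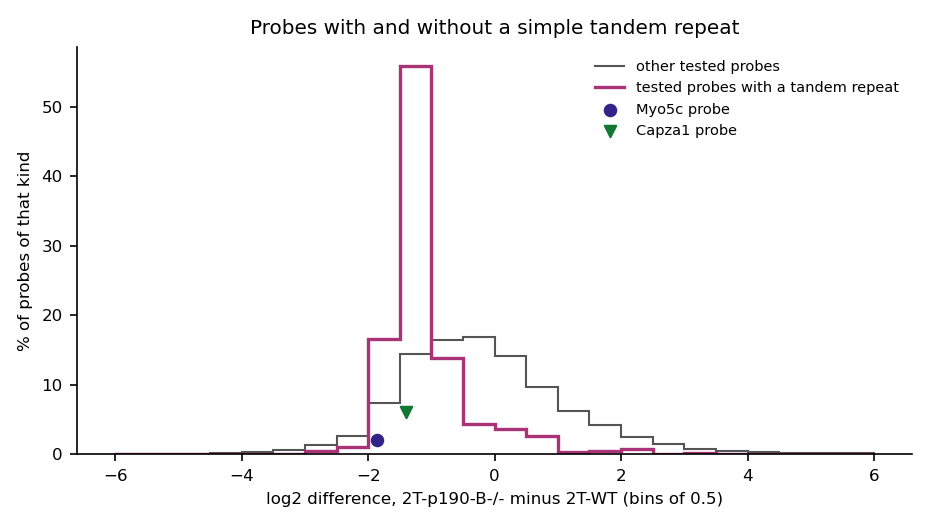
Share of probes (vertical axis, % of each kind) by log2 difference, 2T-p190-B-/- minus 2T-WT (horizontal axis, bins of 0.5, values beyond the ends in the end bins), for the 602 tested probes with a tandem repeat and the 24525 without. Symbols mark the Myo5c and Capza1 probes by their position on the horizontal axis, and their height has no meaning. Of the repeat-bearing probes 55.8% lie between −1.5 and −1.

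Myosin light chains and their kinases. Of 14 genes, 12 were tested, 6 lower and 6 higher, with a median of −0.22, and none passed the adjusted test. Myl7, the atrial regulatory chain, read −2.28, −1.97 and −2.78 in 2T-WT and −1.85, −1.95 and 1.98 in 2T-p190-B-/-. The groups were separate by 0.02 only, and 1 array carried the difference of 1.74 ± 1.12 (SE, limma adjusted p = 0.638). Myl6, the essential chain of non-muscle and smooth muscle myosin, read −2.64, −0.54 and −0.35 against 3.37, −1.05 and −2.78 on its brightest probe, a difference of 1.02 ± 1.52 that turned without 2T-p190-B-/- replicate 1. On its other probe the values were −2.13, −1.55 and −2.06 in 2T-WT and 1.1, 0.43 and −1.42 in 2T-p190-B-/-, a difference of 1.95 ± 0.83 (SE, limma adjusted p = 0.638). All of the 2T-p190-B-/- arrays were higher on this second probe. Myl12b, the regulatory chain of non-muscle myosin, read 3.57, 3.40 and 2.87 against 2.02, 1.80 and 3.38, a difference of −0.88 ± 0.73.

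ERM proteins. Ezrin, radixin and moesin tether the cortex of filaments to the plasma membrane. Both tested genes were lower in 2T-p190-B-/- without overlap, beside 12.3% of all genes, and neither passed the adjusted test. Rdx was above background on no array. Ezr (chr17:6942607-6942666) read −2.52, −1.60 and 0.20 in 2T-WT and −3.98, −3.74 and −2.76 in 2T-p190-B-/-, above background on 2 arrays of each group. Every 2T-WT value exceeded the highest of 2T-p190-B-/-, by 0.25 at the nearest. The remaining array of each group was not above background, so this separation and the fold given next rest in part on such readings. The means were −1.31 ± 1.38 (SD, n = 3) and −3.49 ± 0.64, 4.56-fold apart (difference −2.19 ± 0.88, SE, limma adjusted p = 0.638). Msn (chrX:93363832-93363891), the main ERM protein of blood cells, read −1.61, −2.51 and −0.62 in 2T-WT and a narrow −3.13, −3.11 and −2.70 in 2T-p190-B-/-. It was 2.64-fold lower there (difference −1.40 ± 0.74, SE, limma adjusted p = 0.638), with 0.19 between the nearest arrays. On the slide that held both groups the differences were −3.16 for Ezr and −1.56 for Msn, and without 2T-WT replicate 3 they were −1.43 and −0.92. Ezr is also an epithelial gene, and of 4 epithelial markers 3 were tested, 2 lower and 1 higher, with a summed scaled signal of 2.96 to 16.7 in 2T-WT and 1.30 to 26.5 in 2T-p190-B-/-. Single probes made up most of the highest sums, Epcam at 3.90 on 2T-WT replicate 3 and the untested Krt8 at 4.42 on 2T-p190-B-/- replicate 1. The part of epithelial cells in the Ezr values was not tested.

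**Figure D5:**
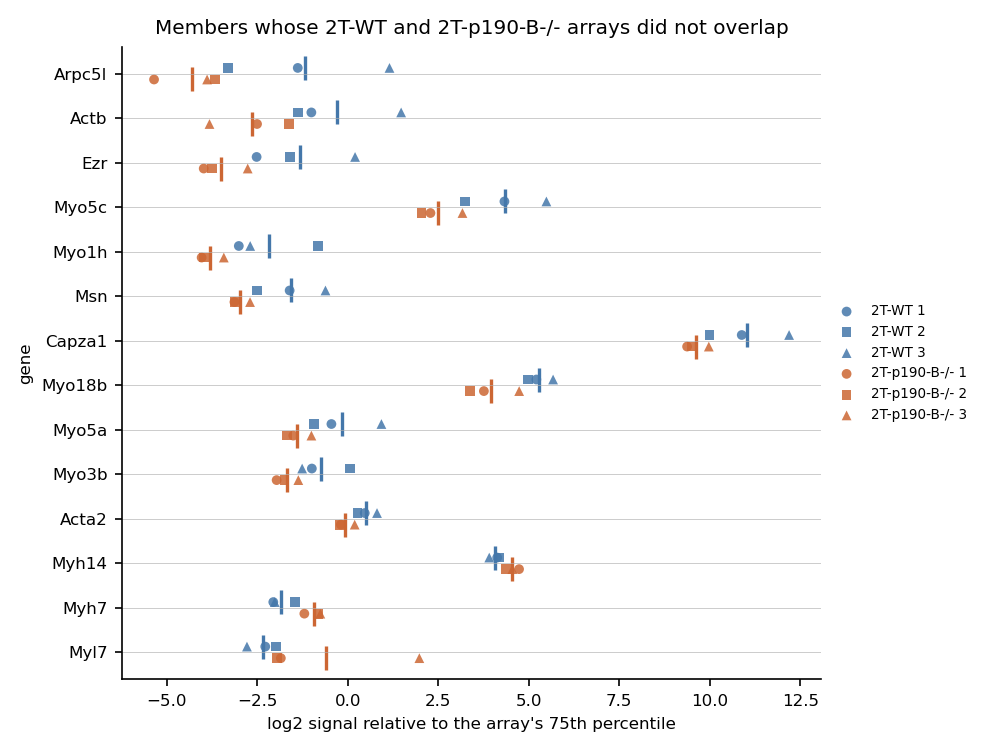
Log2 signal relative to the array's 75th percentile (horizontal axis) on each array for members whose groups did not overlap, ordered by difference, with a bar at each group mean. The genes from Arpc5l to Acta2 are lower and the last 3 higher in 2T-p190-B-/-, and 2T-WT replicate 3 (blue triangle) is the highest array for all of the lower genes shown but Myo1h and Myo3b.

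Filament turnover and capping. Of 13 genes, 9 were tested, 6 lower and 3 higher, with a median of −0.84, and none passed the adjusted test. Cfl1, the main cofilin of blood cells, read 6.27, 5.28 and 4.49 in 2T-WT and 3.99, 4.58 and 4.76 in 2T-p190-B-/-, a difference of −0.91 ± 0.74 (SE) with overlap. Its other probes gave −0.32 ± 1.35 and 0.31 ± 1.01. Pfn1, which feeds monomers to growing ends, read −2.02, −1.06 and −0.48 against 0.78, −0.85 and 0.11, a difference of 1.20 ± 0.78 (limma adjusted p = 0.638). The mean of Pfn1 was higher in 2T-p190-B-/- under every alternative processing tried. Capzb, the capping partner of Capza1, differed by −0.94 ± 1.18 and Coro1a, a coronin of leukocytes, by 0.24 ± 1.21, and both turned under alternatives. Capza2 was above background on 1 array.

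Tropomyosins and crosslinkers. The 4 tropomyosins, which lie along filaments and decide which proteins reach them, differed by −0.30 to 0.01 on their brightest probes. Tpm1 read 5.67, 5.87 and 5.70 in 2T-WT and 5.08, 5.29 and 6.02 in 2T-p190-B-/-, a difference of −0.28 ± 0.66 (SE). Another of its probes was lower in 2T-p190-B-/- without overlap, at 2.53, 3.06 and 2.16 against 2.01, 1.06 and −0.40, a difference of −1.69 ± 0.82 with an adjusted limma p of 0.638. Tpm3 differed by 0.01 ± 0.78 on its brightest probe, by 1.83 ± 1.46 with overlap on another, and Tpm4 by −0.30 ± 1.01, and neither kept its direction under all alternatives. Of 7 crosslinker genes 4 were tested, 2 lower and 2 higher. Among them Actn1 differed by 0.80 ± 0.88, Actn4 by −1.32 ± 1.39 and Flna, the filamin of most cells, by −0.40 ± 0.67. All of these overlapped.

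Nucleation and elongation outside Arp2/3. Of 6 genes, 5 were tested, 3 lower and 2 higher. Diap1, a formin that small GTPases activate directly, read 1.26, 1.72 and 2.19 in 2T-WT and 0.70, 0.90 and 1.33 in 2T-p190-B-/-, overlapping by a single pair of arrays. The difference was −0.75 ± 0.67 (SE, limma adjusted p = 0.712). Vasp, which keeps growing ends free of cap, was nearly level at 3.32, 2.16 and 3.10 against 2.51, 2.68 and 2.99. The 6 actin-related proteins outside Arp2/3, which belong to dynactin and to chromatin remodelers, were all tested, 5 lower and 1 higher, between −0.59 and 0.18, with no separate groups.

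Upstream of these genes, a list of 39 genes from small GTPases to actin was looked at in the same fit. Of these, 26 were tested, 16 lower and 10 higher, with a median of −0.60, 15 of them below the median of all genes. Without overlap, 7 were lower and 1 was higher, shares of the 26 beside the 12.3% and 4.13% of all genes given above, and none passed the adjusted test. Rac1, a GTPase that activates Arp2/3 through the WAVE complex, read −2.55, −2.32 and −0.85 in 2T-WT and −4.11, −3.28 and −2.96 in 2T-p190-B-/-, a difference of −1.54 ± 0.77 (SE, limma adjusted p = 0.638). Its blood-cell paralog Rac2 read 0.38, 0.17 and 1.81 against −0.37, −0.36 and 0.07, a difference of −1.01 ± 0.73. Rock2, the kinase that raises myosin activity below RhoA, differed by −1.60 ± 0.83, and Limk2, which inactivates cofilin, by −0.75 ± 0.64. Without 2T-WT replicate 3 the differences were −1.01 for Rac1, −0.50 for Rac2, −1.05 for Rock2, −0.86 for Pak1 and −1.06 for Baiap2. Limk2 and Wipf1 did not shrink without that array, at −0.79 and −1.54, and Cap1 was 1.90. The groups did not overlap for Rock2 and Limk2, nor for Pak1, Wipf1 and Baiap2, between −1.61 and −1.31. Cap1, a recycler of actin monomers, was the gene higher without overlap, at −0.72, −2.16 and −1.76 against −0.25, 1.77 and −0.14, a difference of 2.01 ± 0.84 (limma adjusted p = 0.638). Rhoa, Ssh1, Cyfip1 and Abi2 were above background on no array.

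Promoters of several members carry the CArG box, the element bound by serum response factor, which many actin genes depend on and whose cofactors, encoded by Mkl1 and Mkl2, are held in check by monomeric actin. In RefSeq windows of 300 bases (GRCm38.p6, 250 before to 50 after each start), searched on both strands, 12 of 108 member promoters (11.1%), of 89 genes matched, held the box, against 1.63% of all 32851 promoters. The box is shown in capitals for the 3 actins and 2 light chains described above that hold it, each read 5′ to 3′ on the strand of its gene.
Acta1, chr8:123894829-123894858: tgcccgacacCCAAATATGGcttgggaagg
Actc1, chr2:114052903-114052932: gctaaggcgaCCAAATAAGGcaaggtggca
Actg1, chr11:120348566-120348595: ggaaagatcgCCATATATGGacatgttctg
Myl6, chr10:128493040-128493069: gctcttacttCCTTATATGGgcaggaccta
Myl7, chr11:5898824-5898853: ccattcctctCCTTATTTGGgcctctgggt
Of the 12 genes with the box, 10 were tested, 5 lower and 5 higher, with a median of −0.23, and only Myl7 was without overlap. The box was therefore found in members of both directions. Srf, which encodes the factor, read 2.02, 2.29 and 2.63 in 2T-WT and 3.32, 1.44 and 1.89 in 2T-p190-B-/-, a difference of −0.10 ± 0.75 (SE).

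Of the 31 members with more than 1 probe, 18 had at least 2 tested. All of a gene's tested probes were lower in 6 of them and higher in 5, and in 7, among them Actg1, Capza1, Cfl1 and Enah, they lay in both directions.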

How the data were processed

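Total RNA of 3 samples per group was amplified to cDNA, labelled with Cy3 and hybridised to Agilent Whole Mouse arrays by Miltenyi. The authors deposited 1 scanner file per array (Agilent Feature Extraction 10.5.1.1, probe positions on mm9) with the intensity of each spot, and a table of intensity values that equals the processed signal of each spot divided by a constant per array. Depth does not apply to arrays, whose number limits the precision. Of 39429 probes, RefSeq (GRCm38.p6) named 26412 through their accession and 3854 through a gene symbol, while 9163 had only the file's own name. Probes of that last kind were left out of the counts over all genes unless they were members. Members were counted under their name on the array. No annotation of mm9 was used, so the exon or untranslated region of a probe is not given.

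Control and outlier spots were left out (296 to 509 outliers per array) and no spot was saturated. The log2 processed signal minus the log2 75th percentile of the array was averaged over spots of a probe. Probes well above background on 3 of 6 arrays were tested with limma 3.58.1 in R 4.3.3, on all 6 arrays without covariates, after a check on simulated data. Each gene was represented by its brightest tested probe. Two-sided exact permutation tests were run on single genes. A group with no array above background was given the higher of its own reading and the lowest detected signal of each array. The methods' unpaired test of the groups was run on the same values, with the p of 0.05 and the 2-fold limit of the study's gene lists.

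The genes given by array were all actins and Arp2/3 genes, a set of non-muscle genes and every member at least 2-fold apart without overlap (at most 15), with others added after their values were seen. No probe was named Myl12a. Members without a value in the text enter the counts only, and 1 member that the rule for named genes takes in is not reported here. The members and lists were chosen with earlier results of these data known. Replicate numbers did not pair the arrays, as deviations of same-numbered arrays correlated at 0.009, 0.016 and 0.086. Alternatives covered normalization, background, filter, slide, replicate block, variance model, probe choice and each array left out. Settings for repeats were added after the data were seen.

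The marker lists not described elsewhere gave these counts of tested genes by mean in 2T-p190-B-/- relative to 2T-WT. Of 12 smooth muscle and stroma genes, 7 were lower and 2 higher. Of 12 genes of stem cells and their sort, 4 were lower and 3 higher. Of 7 megakaryocyte genes, 1 was lower and 2 higher. Of 8 neutrophil genes, 4 were lower and 2 higher. Of 6 red cell genes, 0 were lower and 3 higher. Of 5 B cell genes, 3 were lower and 1 higher. Of 5 T cell genes, 3 were lower and 0 higher. No marker passed the adjusted test.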

Additional observations from a re-analysis of the deposited data

How the results depend on the processing

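No member passed the adjusted limma test under any of 16 alternative settings or without the repeat-bearing probes, a setting added after the data were seen. In that added setting 9 members were lower and 3 higher without overlap. Of all tested probes without a repeat, counted by probe and not by gene, 11.2% were lower and 4.62% higher without overlap. The median difference over members kept its sign throughout. It was −0.17 under quantile normalization, −0.28 with normexp, −0.19 in the authors' values and −0.21 with the slide as a block, where the medians of all genes were −0.14, −0.46, −0.24 and −0.51. The replicate numbers did not pair the arrays, and with the replicate block the counts (0 called, 1 and 0 past the 2-fold rule, 12 lower and 3 higher without overlap) and the median of −0.32 were as before.

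The count of members lower by the 2-fold rule was 0 with quantile normalization (3.65% of all genes), 6 of 87 with normexp (10.9%), 2 of 108 without a filter (4.09%), 2 on the slide with both groups (3.65%), 0 with the mean of a gene's probes, 3 with limma's unadjusted p, 0 after Benjamini-Hochberg adjustment, and 0 to 7 with each array left out (1.86% to 6.998% of all genes). Higher by that rule were 1 with quantile normalization (2.30%), 1 in the authors' values (2.21%), 2 on the slide with both groups (1.83%), and 0 to 2 with each array left out (1.45% to 2.33%). Without overlap, 7 of 50 were lower among probes above background on all 6 arrays (14.5% of all genes), 22 of 87 on the slide with both groups (34.4%) and 13 to 20 with each array left out (15.9% to 26.0%). Higher without overlap were 5 with quantile normalization (5.27%), 6 with normexp (3.25%), 7 on that slide (12.01%) and 3 to 7 with each array left out (7.05% to 9.30%). Fewer arrays make overlap less likely by construction, and the other causes were not tested.

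Of 35 named genes, 19 kept their direction in every setting run. Quantile normalization turned Arpc3 to 0.049, and the authors' values turned it to 0.076. Normexp turned Actn1 to −0.11, Arpc1a to −0.22, Arpc1b to −1.50, Arpc3 to 0.67, Cfl1 to 0.0099 and Coro1a to −0.50. With the slide as a block, and on the slide with both groups alone, Actg1 turned to 0.065, Actr3b to −0.067, Arpc1b to −3.33, Arpc3 to 0.26, Capzb to 0.85 and Tpm3 to −0.26. Capza1 turned to 0.11 with the mean of its probes and to 1.62 without the repeat-bearing one, and stayed between −1.92 and −0.82 with each array left out. With arrays left out in turn the ranges that crossed 0 were Actg1 −2.22 to 0.18, Actn4 −2.51 to 0.32, Actr3 −0.59 to 0.12, Arpc1a −0.13 to 2.64, Arpc1b −1.96 to 2.82, Arpc3 −0.44 to 0.39, Arpc5 −1.35 to 0.42, Capzb −1.81 to 0.10, Coro1a −0.81 to 1.13, Myl6 −0.74 to 2.34, Tpm3 −0.45 to 0.57 and Tpm4 −0.92 to 0.70. The cause of each turn was not tested, beyond what each setting leaves out. With 3 arrays a group and within-group SDs near 1 log2 unit, single differences of the sizes seen were not resolved, and dim probes give bounds only.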
